A study of Homo sapiens with 6 samples.

Results

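The heat shock chaperones described here are the protein-coding genes of the HSP90, HSP70, HSP110, HSP60, HSP10 and small HSP families, the J-domain proteins of the DNAJA, DNAJB and DNAJC families, and the subunits of the cytosolic chaperonin TRiC. The set was defined by gene symbol, so it also holds HSPBP1 and HSPBAP1, which bind heat shock proteins and belong to none of these families, and 2 readthrough genes. All are counted among the chaperones here. The symbol rule left out 5 chaperones of the endoplasmic reticulum (HSPA5, HSP90B1, DNAJB9, DNAJB11 and DNAJC3) and found 80 genes in the RefSeq annotation, of which 69 are among the 12486 genes of the table used here. The other 11 genes (CCT8L2, DNAJA4, DNAJB5, DNAJB8, DNAJC15, DNAJC5B, DNAJC5G, HSPA12A, HSPA2, HSPB7 and HSPB8) were not analysed here. The table holds genes whose FPKM varied by a standard deviation of at least 0.0501 over the libraries. Of the 69 genes, 66 passed the filter for testing (a mean of at least 0.1 FPKM), and DNAJB13, DNAJC25-GNG10 and HSPE1-MOB4 did not. The rule goes by name and not by compartment, so it also keeps proteins of the endoplasmic reticulum such as HSPA13, DNAJC10 and DNAJB12, and nuclear proteins such as DNAJC8 and DNAJC9.

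RNA-seq was performed on total RNA from K562 cells, a Bcr-Abl-positive human line from chronic myeloid leukemia. In the sh-luc group a stable shRNA targeted luciferase as a control, and in the sh-IUR1 group it targeted lncRNA-IUR1, which the sample labels name lncRNA-up91. Each group has 3 libraries. In either group 1 library carries no replicate number and is called unnumbered, and the others are r1 and r2. Values are given in the order unnumbered, r1, r2. A single shRNA sequence was used for the knockdown, the labels name no drug treatment, and the level of lncRNA-IUR1 itself was not analysed here. The methods describe the libraries as independent groups of cells, but the labels do not say how these were grown or when they were harvested. All 12 erythroid and K562 markers examined were listed, with a summed level between 5296 and 6972 FPKM per library. Of 7 T-lymphoid markers 3 were listed, with summed levels between 3.51 and 5.08 FPKM, and of 5 B-lymphoid markers 2 were listed, with sums between 0.98 and 1.36 FPKM. Of 5 monocyte markers LYZ and CD68 were listed and summed to between 116.4 and 129.3 FPKM, most of it LYZ, whereas CD14, CSF1R and FCGR3A were not. Of 6 fibroblast or epithelial markers 2 were listed, EPCAM between 37.9 and 47.6 FPKM and COL1A1 between 0.21 and 0.37 FPKM. The unnumbered sh-luc library stood apart from the rest, with a score of -19.8 on the first principal component of log2(FPKM + 1), which held 59.3% of the variance. The other 5 libraries scored between -3.75 and 13.0, and the highest of these was sh-IUR1 r1. FPKM scales the sequenced fragments of a gene to its transcript length and to the size of the library, so levels of different genes can be compared on it.

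Chaperones bind unfolded or partly folded proteins and, in most families, use cycles of ATP binding and hydrolysis to release them in a form that can fold. HSP70 proteins are directed to their clients by J-domain proteins, which stimulate the HSP70 ATPase, and are recharged by nucleotide exchange factors such as the HSP110 proteins. HSP90 completes the maturation of kinases and other signalling proteins, and Bcr-Abl is a well known HSP90 client. HSP60 with its lid HSP10 folds proteins inside mitochondria, TRiC folds actin and tubulin in the cytosol, and small HSPs hold unfolded proteins without ATP. Many of these genes are induced by the transcription factor HSF1, which binds heat shock elements, arrays of the units GAA and TTC that alternate at a spacing of 2 bases.

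Heat shock elements were looked for in the RefSeq promoter windows of GRCh38.p14 (250 bases before to 50 bases after a start site), a search chosen after the values of the genes had been seen. A 3-unit element was defined as GAANNTTCNNGAA or TTCNNGAANNTTC, which are reverse complements of each other, so both strands were covered. It was present in the windows of 7 of the 62 listed chaperones that have a window (11.3%), and in those of 85 of 15843 protein-coding genes (0.537%). The genes were DNAJA1, DNAJB6, HSP90AA1, HSP90AB1, HSPA6, HSPA8 and HSPD1. The shorter 2-unit element (GAANNTTC or TTCNNGAA, which lies within every 3-unit element) was present for 23 of these 62 chaperones (37.1%) and for 14.9% of protein-coding genes. Among them were HSPA1A, HSPA1B, HSPB1 and DNAJB1. These sequences are given because their genes include the most variable chaperone, HSPA8. Each shows a 3-unit element with 8 bases on either side, read 5′ to 3′ on the strand of the gene. The capitals mark the element.
HSPA8: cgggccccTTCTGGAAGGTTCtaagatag
HSP90AA1: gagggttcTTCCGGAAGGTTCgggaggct
HSP90AB1: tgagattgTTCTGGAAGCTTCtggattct
HSPD1: attttctgGAAAGTTCTGGAAccgagcga
DNAJA1: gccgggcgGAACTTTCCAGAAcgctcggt
DNAJB6: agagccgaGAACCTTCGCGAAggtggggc
HSPA6: cggaaaggTTCGCGAAAGTTCgcggcggc

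The HSPA8 stretch lies at chr11:123062171-123062199 on the minus strand, and its element begins 55 bases before the RefSeq start site, in a region that GENCODE release 44 annotates as the untranslated exon of another HSPA8 transcript. HSPA8 has a further 3-unit element 230 bases before the same start site. HSP90AB1 has a further one at 165 bases, and in HSPD1 a second match at 245 bases overlaps the one given. The HSP90AA1 stretch is at chr14:102087112-102087140 on the minus strand, and its element begins 88 bases before the start site. The HSP90AB1 stretch is at chr6:44247823-44247851 on the plus strand, 112 bases before the start site. Both overlap no annotated exon. The HSPD1 stretch, at chr2:197500060-197500088 on the minus strand, also falls in an untranslated exon of another transcript of its gene. The DNAJA1 stretch, at chr9:33025268-33025296 on the plus strand, spans the start site, and its element begins 3 bases after that site, in the first exon. The DNAJB6 stretch is at chr7:157336865-157336893 and that of HSPA6 at chr1:161524458-161524486, both on the plus strand and outside annotated exons. A match of letters is a description of the sequence, and binding by HSF1 was not measured.

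The chaperones covered a wide range of levels. Together they made up between 1.15% and 1.44% of the FPKM of all listed genes. Of the 69 genes, 16 had a mean of at least 100 FPKM, 43 of at least 10 FPKM and 57 of at least 1 FPKM. HSP90AB1, the constitutive cytosolic HSP90, was the most abundant at a mean of 1738 FPKM, followed by HSPA8, the constitutive cytosolic HSP70, at 713.6 FPKM. HSPB1, the small HSP known as HSP27, came next at 455.5 FPKM, and the 8 subunits of the TRiC ring lay between 192.3 and 412.0 FPKM. The 12 genes under 1 FPKM included HSPA6, a strictly stress-inducible HSP70, the testis-enriched HSPA1L and CCT6B, and the small HSPs HSPB2, HSPB6 and HSPB9.

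**Figure D1:**
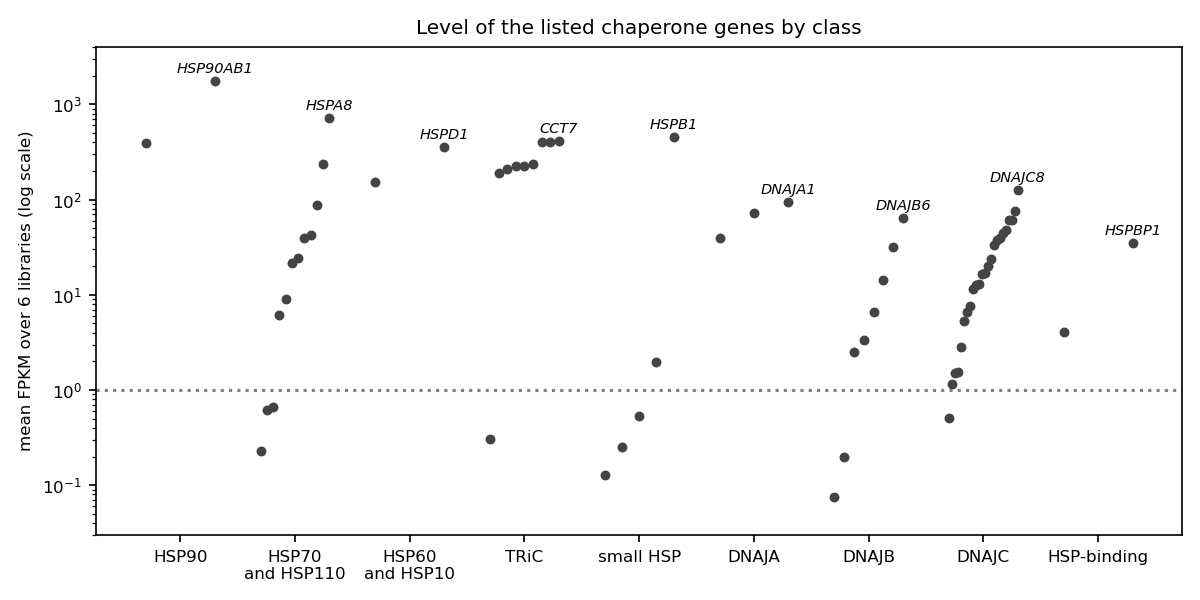
Mean FPKM over the 6 libraries (log scale) of the listed chaperone genes, by class, leaving out the 2 readthrough genes; each point is 1 gene, the most abundant gene of each class is named, and the dotted line marks 1 FPKM. HSP90AB1 stands highest at 1738 FPKM, and the TRiC subunits other than CCT6B form a tight group between 192.3 and 412.0 FPKM.

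The comparison of sh-IUR1 with sh-luc asks whether these genes respond to the knockdown of lncRNA-IUR1. No chaperone gene passed the test. Of 66 chaperones tested with limma on log2(FPKM + 1), 0 were under 0.05 after adjustment, where 0.0% of all 12276 genes did, and the smallest adjusted p-value among the chaperones was 0.930. At an unadjusted p-value under 0.05 from limma, 2 chaperones (HSPBAP1 and DNAJC30) were higher in sh-IUR1, or 3.03%, beside 1.65% of all genes tested. In the same way 0 chaperones were lower, beside 0.994% of all genes. The libraries of sh-IUR1 lay entirely above those of sh-luc for 4 chaperones (6.06%, and 4.04% of all genes) and entirely below for 3 chaperones (4.55%, and 3.03% of all genes). The fold changes were small. They lay between -0.55 for HSPA8 and 0.30 for DNAJC30 on the log2 scale, with a median of -0.020 over the chaperones and 0.019 over all genes tested. The fitted change was negative for 37 chaperones (56.1%) and for 42.0% of all genes. Without the unnumbered sh-luc library it was negative for 34 and positive for 32 chaperones, with a median of -0.00097. Over all genes without that library it was negative for 5809 of 12276, with a median of 0.0047. Fold changes on this scale understate those of genes with low FPKM.

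HSPA8, which carries most of the constitutive HSP70 activity of the cytosol, varied more between libraries than any other chaperone that averaged at least 1 FPKM. It was expressed at 1237 FPKM (unnumbered), 591.2 FPKM (r1) and 728.6 FPKM (r2) in the sh-luc libraries. In sh-IUR1 it stood at 564.0 FPKM (unnumbered), 388.3 FPKM (r1) and 772.7 FPKM (r2). The unnumbered sh-luc library was the highest and sh-IUR1 r1 the lowest, and the groups overlapped. The means were 852.1 ± 340.0 FPKM in sh-luc and 575.0 ± 192.4 FPKM in sh-IUR1 (SD, n = 3 in each group), and the two-sided exact permutation test of the difference gave p = 0.4. The log2 fold change was -0.55 (standard error 0.28, adjusted p = 0.930 from limma). Without the unnumbered sh-luc library it was -0.25, with an adjusted p of 0.9997. The highest library was 3.18 times the lowest, a spread on the log2 scale that only 15 of the 10632 genes that averaged 1 FPKM or more reached, HSPA8 included. HSPA8 alone made up 71.9% of the summed FPKM of the HSP70 and HSP110 genes in the unnumbered sh-luc library and 45.6% in sh-IUR1 r1. RefSeq names 20 pseudogenes of HSPA8, none of them among the listed genes, so how reads shared with them were assigned is uncertain.

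**Figure D2:**
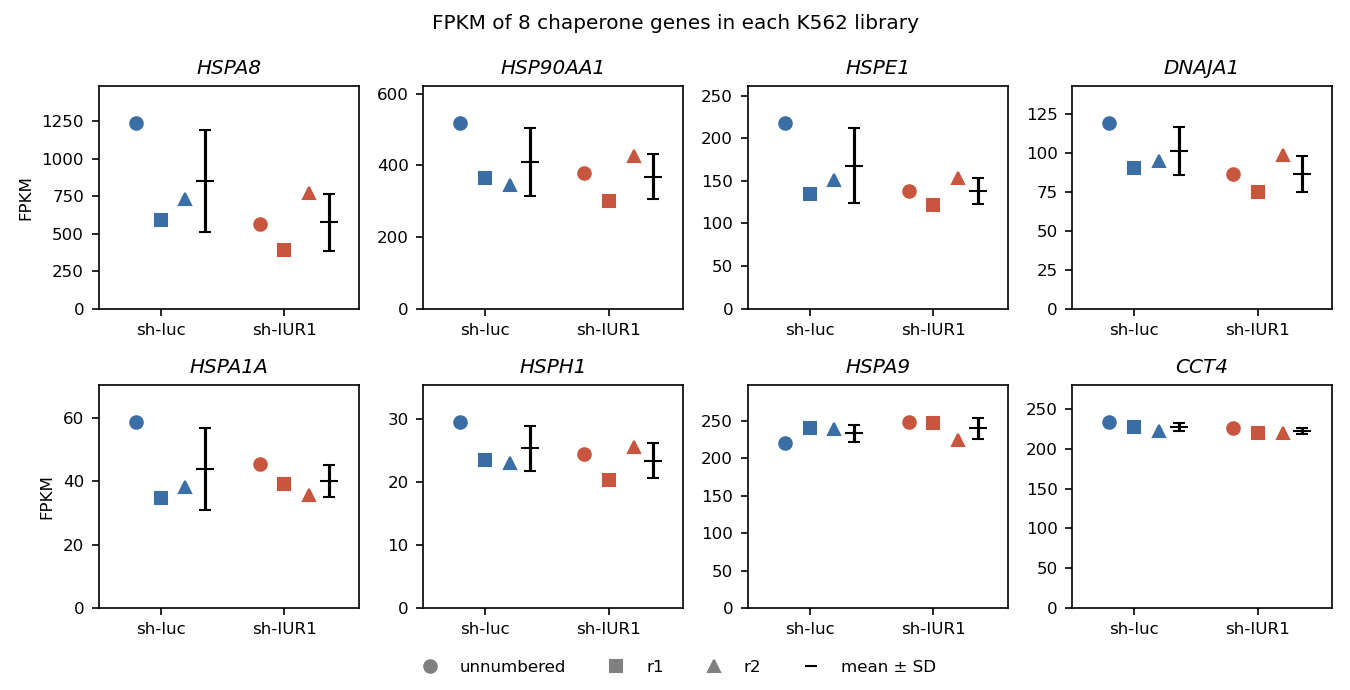
FPKM of 8 chaperone genes in each library, with the mean and SD of each group (n = 3) to the right of its points; circles are the unnumbered libraries, squares r1 and triangles r2, and every axis starts at 0. HSPA8, HSP90AA1, HSPE1 and DNAJA1 share their highest library (unnumbered sh-luc) and their lowest (sh-IUR1 r1), whereas HSPA9 is lowest in the unnumbered sh-luc library and CCT4 stays between 220.6 and 233.4 FPKM.

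The inducible HSP70 genes HSPA1A and HSPA1B shared the highest library of HSPA8 but not its lowest. HSPA1A was at 58.6, 34.8 and 38.2 FPKM in sh-luc (unnumbered, r1 and r2) and at 45.4, 39.3 and 35.6 FPKM in sh-IUR1. HSPA1B was at 26.6, 17.5 and 19.7 FPKM in sh-luc and at 25.3, 21.4 and 19.5 FPKM in sh-IUR1. Both were highest in the unnumbered sh-luc library, but their lowest library was sh-luc r1. The log2 fold changes were -0.10 and 0.064 (adjusted p = 0.948 and 0.954 from limma), and without the unnumbered sh-luc library they became 0.13 and 0.23 (adjusted p = 0.9997 for both). The coding sequences of these genes are nearly identical, so the division of reads between them is uncertain, and their summed level was 85.2, 52.3 and 57.9 FPKM in sh-luc and 70.7, 60.7 and 55.0 FPKM in sh-IUR1. HSPA6 was low, at 0.51, 0.36 and 0.48 FPKM in sh-luc and 1.12, 0.80 and 0.43 FPKM in sh-IUR1, with overlapping groups.

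HSPH1, an HSP110 that exchanges the nucleotide of HSP70, was at 29.5, 23.4 and 23.1 FPKM in sh-luc and at 24.4, 20.3 and 25.5 FPKM in sh-IUR1. It had the same highest and lowest libraries as HSPA8. Its log2 fold change was -0.11 (standard error 0.11, adjusted p = 0.930 from limma) and 0.0020 without the unnumbered sh-luc library. HSPA4, the other abundant HSP110, was at 89.1, 88.7 and 83.1 FPKM in sh-luc and at 91.4, 83.8 and 87.9 FPKM in sh-IUR1, a log2 fold change of 0.012 that became -0.0081 with median-ratio scaling. HSPA9, the HSP70 of mitochondria, was at 220.6, 241.0 and 239.1 FPKM in sh-luc and at 248.3, 247.8 and 224.6 FPKM in sh-IUR1. It was the only HSP70 or HSP110 gene that averaged at least 1 FPKM whose lowest library was the unnumbered sh-luc library, and its log2 fold change was 0.040, or -0.00056 without that library. HSPBP1, an exchange factor of HSP70, had a log2 fold change of 0.035 (adjusted p = 0.954 from limma).

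The summed level of the 12 listed HSP70 and HSP110 genes was 1720, 1051 and 1185 FPKM in sh-luc and 1057, 851.5 and 1223 FPKM in sh-IUR1. The sh-IUR1 mean was 79.1% of the sh-luc mean, and 93.3% of it without the unnumbered sh-luc library. Most of the difference between the groups in this sum therefore lay in 1 library. The sum averaged 1319 FPKM in sh-luc and 1044 FPKM in sh-IUR1. HSPA8 alone averaged 852.1 and 575.0 FPKM, so the difference in the sum was about that of HSPA8. A lower level per cell and a smaller share of cells that express a gene cannot be told apart in bulk RNA.

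Both cytosolic HSP90 genes were highest in the unnumbered sh-luc library and lowest in sh-IUR1 r1. HSP90AA1, the inducible form, was at 518.3, 365.7 and 345.8 FPKM in sh-luc and at 379.8, 300.02 and 425.4 FPKM in sh-IUR1. Its means were 410.0 ± 94.4 and 368.4 ± 63.4 FPKM (SD, n = 3 in each group). The log2 fold change was -0.14 (adjusted p = 0.930 from limma) and 0.036 without the unnumbered sh-luc library. HSP90AB1 was at 1899, 1706 and 1801 FPKM in sh-luc and at 1661, 1600 and 1761 FPKM in sh-IUR1, a log2 fold change of -0.11 (standard error 0.064, adjusted p = 0.930 from limma). Its highest library was 1.19 times its lowest, against 1.73 times for HSP90AA1. The groups overlapped for both genes.

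The genes of the mitochondrial chaperonin were also highest in the unnumbered sh-luc library and lowest in sh-IUR1 r1. HSPE1, which encodes the HSP10 lid, was at 217.9, 134.3 and 151.3 FPKM in sh-luc and at 138.5, 122.1 and 153.2 FPKM in sh-IUR1. HSPD1, which encodes the HSP60 barrel and is the head-to-head neighbour of HSPE1 on chromosome 2, was at 383.2, 353.0 and 356.1 FPKM in sh-luc and at 358.4, 325.2 and 363.1 FPKM in sh-IUR1. Between the same pair of libraries HSPE1 thus ranged over 0.83 and HSPD1 over 0.24 on the log2 scale. The log2 fold changes were -0.26 for HSPE1 (standard error 0.15) and -0.062 for HSPD1 (standard error 0.063), each with an adjusted p of 0.930 from limma. Without the unnumbered sh-luc library they were -0.053 and -0.025. RefSeq names 28 pseudogenes of HSPE1 and 22 of HSPD1, and HSPE1-MOB4 is a readthrough of HSPE1 with its neighbour, at 0.22 FPKM in the unnumbered sh-luc library and 0.05 or 0.06 FPKM in the others.

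TRiC is the ring of 8 different subunits that folds actin and tubulin, and its genes varied little between the libraries, with a median range of 0.17 on the log2 scale. The fold between the highest and the lowest library was 1.06 for CCT4 and 1.23 for CCT6A, and the other ring subunits lay between. TCP1, the first subunit of the ring, was at 240.7, 223.1 and 233.8 FPKM in sh-luc and at 224.7, 210.3 and 220.8 FPKM in sh-IUR1. CCT5 was at 247.3, 234.0 and 236.5 FPKM in sh-luc and at 232.8, 224.8 and 227.2 FPKM in sh-IUR1, and was the ring subunit whose groups did not overlap (p = 0.1 by a two-sided exact permutation test, and no smaller p can be had with 3 libraries against 3). All 8 fitted changes were negative, from -0.089 for TCP1 to -0.019 for CCT7 on the log2 scale, with adjusted p-values between 0.930 and 0.963 from limma. The sign of CCT7 turned positive with quantile normalization, and those of CCT7 and CCT8 turned when single libraries were left out. For 6 of the 8 subunits the difference between the group means was smaller than the larger of the group SDs. CCT8 was at 436.4, 398.8 and 393.3 FPKM in sh-luc and at 414.9, 360.9 and 413.6 FPKM in sh-IUR1, and CCT2 at 232.3, 207.3 and 213.0 FPKM and at 214.9, 189.1 and 210.3 FPKM. CCT3 lay between 388.9 and 425.2 FPKM, CCT4 between 220.6 and 233.4 FPKM, CCT6A between 172.7 and 212.4 FPKM and CCT7 between 397.5 and 432.5 FPKM over the 6 libraries. The ring subunits were thus highest in the unnumbered sh-luc library for 6 of 8 and lowest in sh-IUR1 r1 for 7 of 8. The 7 include CCT4, which was at 220.6 FPKM in both sh-IUR1 r1 and sh-IUR1 r2. CCT6B, a tissue-restricted relative of CCT6A, was at 0.40 FPKM or less in the 6 libraries.

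Among the small HSPs, HSPB1 alone was abundant. It was at 468.0, 435.6 and 478.9 FPKM in sh-luc and at 426.4, 482.0 and 442.3 FPKM in sh-IUR1. It was lowest in the unnumbered sh-IUR1 library and highest in sh-IUR1 r1, so it did not follow the order of HSPA8. The log2 fold change was -0.034 with an adjusted p of 0.951 from limma, and it was 0.0020 with quantile normalization. HSPB3, a small HSP of muscle, was at 2.69, 2.04 and 1.63 FPKM in sh-luc and at 1.52, 1.44 and 2.63 FPKM in sh-IUR1.

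The J-domain proteins bring clients to HSP70 and differed among themselves. DNAJA1, an abundant partner of HSPA8, was at 119.4, 90.5 and 95.0 FPKM in sh-luc and at 86.5, 74.9 and 98.6 FPKM in sh-IUR1. DNAJB1, the heat-inducible HSP40, was at 38.9, 30.4 and 33.6 FPKM in sh-luc and at 31.1, 28.4 and 30.2 FPKM in sh-IUR1. Both were highest in the unnumbered sh-luc library and lowest in sh-IUR1 r1. The log2 fold changes were -0.23 for DNAJA1 and -0.19 for DNAJB1 (adjusted p = 0.930 for each from limma), and -0.11 and -0.094 without the unnumbered sh-luc library. DNAJB6, which suppresses the aggregation of polyglutamine proteins, was at 74.9, 62.1 and 64.1 FPKM in sh-luc and at 60.9, 58.1 and 61.7 FPKM in sh-IUR1, without overlap. Its log2 fold change was -0.15 (standard error 0.076, adjusted p = 0.930 from limma) and -0.066 without the unnumbered sh-luc library. DNAJC21, a cofactor of ribosome assembly, was also lower without overlap, at 18.0, 16.6 and 16.1 FPKM in sh-luc and 15.9, 15.6 and 16.0 FPKM in sh-IUR1, a log2 fold change of -0.086.

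Some J-domain genes were instead lowest in the unnumbered sh-luc library. DNAJC30, a mitochondrial protein, was at 5.19, 7.90 and 7.16 FPKM in sh-luc and at 8.22, 9.27 and 7.95 FPKM in sh-IUR1. The groups did not overlap (p = 0.1 by a two-sided exact permutation test), but sh-IUR1 r2 at 7.95 FPKM and sh-luc r1 at 7.90 FPKM were close. The log2 fold change was 0.30 (standard error 0.13, unadjusted p = 0.0403 and adjusted p = 0.930 from limma) and 0.15 without the unnumbered sh-luc library. DNAJB2, which carries clients toward the proteasome, was at 1.46, 2.73 and 2.61 FPKM in sh-luc and at 3.08, 2.66 and 2.42 FPKM in sh-IUR1. Both genes were lowest in the unnumbered sh-luc library. DNAJB4 was higher in sh-IUR1 without overlap, at 5.53, 6.65 and 6.17 FPKM in sh-luc and 7.57, 6.83 and 6.78 FPKM in sh-IUR1 (log2 fold change 0.18, adjusted p = 0.930 from limma). DNAJC18 was higher without overlap as well, at 1.42, 1.46 and 1.49 FPKM in sh-luc and 1.52, 1.67 and 1.51 FPKM in sh-IUR1 (log2 fold change 0.063). Over the 23 DNAJC genes that averaged at least 1 FPKM, 13 fitted changes were positive and 10 negative, between -0.11 and 0.30. The unnumbered sh-luc library was the highest for 7 of them and the lowest for 8.

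HSPBAP1, which binds the small HSP HSPB1, had the smallest p-value among the chaperones. It was at 3.61, 4.04 and 3.29 FPKM in sh-luc and at 4.65, 4.37 and 4.28 FPKM in sh-IUR1, and the groups did not overlap. The log2 fold change was 0.23 (standard error 0.088, unadjusted p = 0.0269 and adjusted p = 0.930 from limma). It was 0.22 without the unnumbered sh-luc library, so this difference did not rest on that library, but it did not pass the test.

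**Figure D3:**
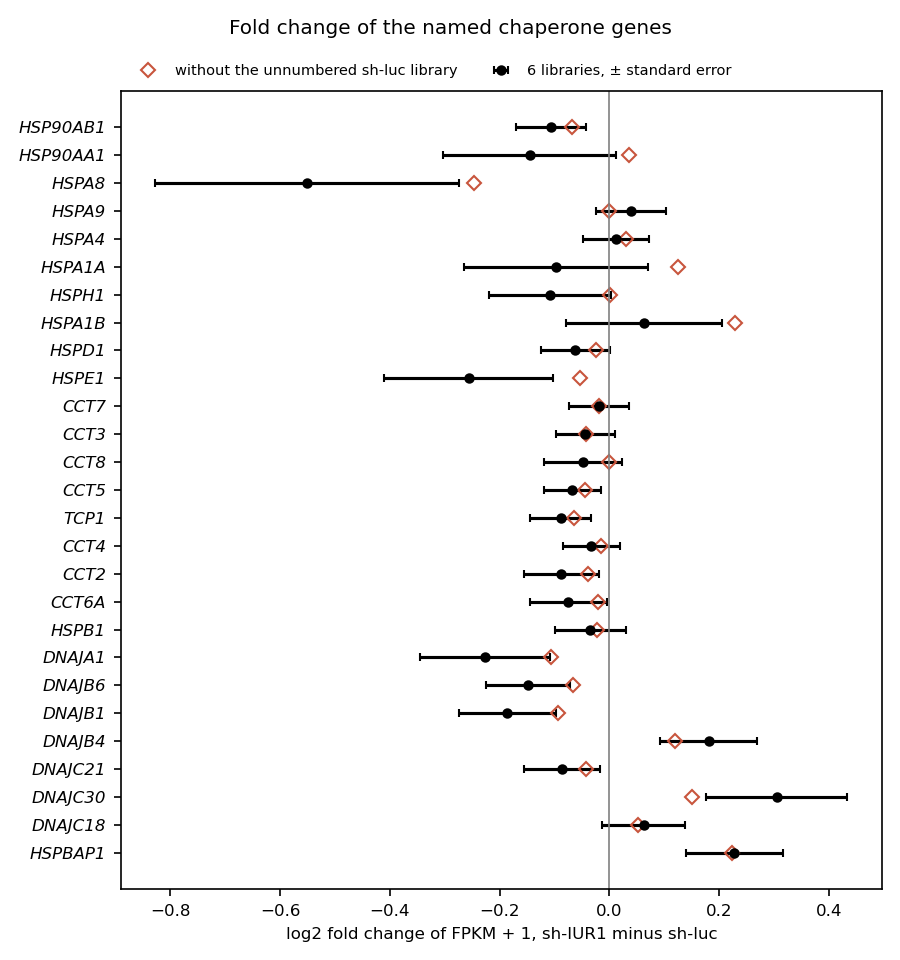
Log2 fold change of FPKM + 1 (sh-IUR1 minus sh-luc) of the 27 named chaperone genes; filled points with bars are the limma estimates over 6 libraries with their standard errors, and open diamonds the estimates without the unnumbered sh-luc library. HSPA8 moves from -0.55 to -0.25 and HSPE1 from -0.26 to -0.053, while HSPBAP1 stays at 0.23 and 0.22.

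The highest and the lowest library were shared by many chaperones. Of the 57 chaperones that averaged at least 1 FPKM, 29 (50.9%) were highest in the unnumbered sh-luc library and 27 (47.4%) were lowest in sh-IUR1 r1. For all 10632 genes at this level these shares were 25.4% and 23.8%. Both held for 23 chaperones (40.4%) and for 14.3% of all genes. CCT4, equally low in sh-IUR1 r1 and sh-IUR1 r2, is counted among the 27 and the 23. In the other direction, the unnumbered sh-luc library was the lowest for 13 chaperones (22.8%) and for 39.1% of all genes. The highest library was sh-IUR1 r1 for 7 chaperones (12.3%) and for 26.1% of all genes. The median chaperone ranged over 0.27 on the log2 scale between its highest and lowest library, and the median gene over 0.26. The chaperones and the other genes were not matched by level. The wide ranges belonged to a few genes: 1.67 for HSPA8, 0.83 for HSPE1, 0.79 for HSP90AA1, 0.74 for HSPA1A and 0.73 for DNAJC30. The 6 chaperones with a 3-unit heat shock element that averaged at least 1 FPKM were all highest in the unnumbered sh-luc library and all lowest in sh-IUR1 r1. HSPA6, which also has the element but averaged 0.62 FPKM, was highest in the unnumbered sh-IUR1 library and lowest in sh-luc r1. The median range of the 6 was 0.51, and that of the 47 chaperones that have a promoter window but without the element was 0.27. These 47 include heat-inducible genes such as HSPA1A, HSPA1B, HSPE1, HSPH1 and DNAJB1. HSPE1 had the widest range of the 47, at 0.83. The 3-unit element of HSPD1, its head-to-head neighbour, lies upstream of HSPE1 but outside the promoter window of HSPE1. HSPE1 is thus counted as without the element because of the window used, and a wider window was not tested. Among these 47 genes, 15 (31.9%) had the same highest and lowest library. Of 33 other genes with the element at this level, 6 (18.2%) did, and of 8716 genes without it 14.5% did. These shares are given as a description, with no test.

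**Figure D4:**
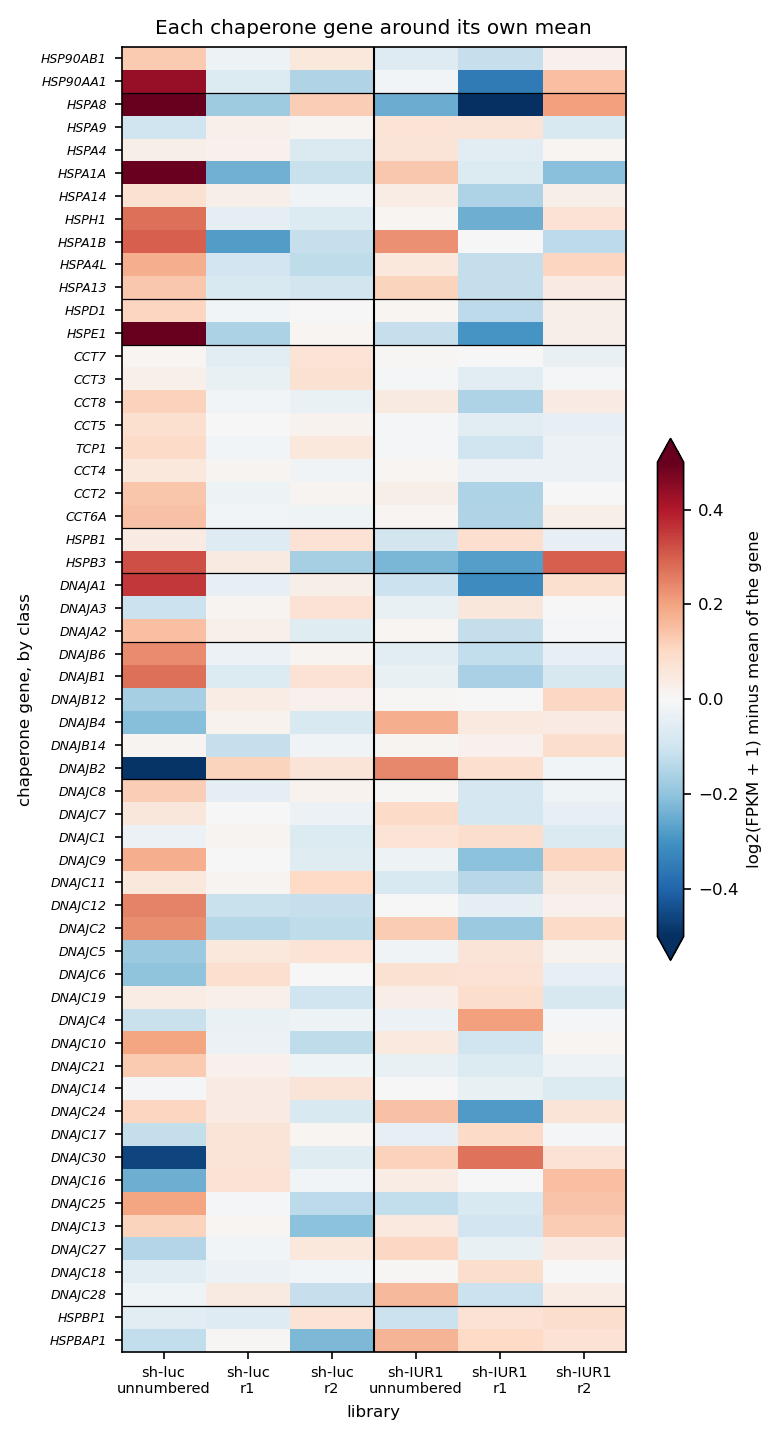
Deviation of log2(FPKM + 1) from the mean of each gene, for the 57 chaperone genes that averaged at least 1 FPKM (rows, by class and then by level) in the 6 libraries (columns); red is above and blue below the mean, and colours are capped at 0.5 in either direction. The unnumbered sh-luc column is red for HSPA8, HSP90AA1, HSPA1A, HSPE1 and DNAJA1 and blue for DNAJB2 and DNAJC30, and sh-IUR1 r1 is blue for most of the first group.

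The other genes of the heat shock pathway did not pass the test either: limma called 0 genes in each of the lists that follow. At an unadjusted p under 0.05 from limma there were 2 of 28 heat-inducible genes, 2 of 14 partners of TRiC and 1 of 27 co-chaperones. There were also 1 of 5 chaperones of the endoplasmic reticulum, and 0 of 5 heat shock factors. Mitochondrial proteostasis had 0 of 14 and integrated stress 0 of 20. Over all genes tested it was 325 of 12276. With a replicate block in limma the unadjusted count was 8 of 28 heat-inducible genes, 6 of them lower, and 10 of 20 integrated stress genes, all higher, and without sh-luc r1 it was 9 and 15. Over all 12276 genes tested, the same count was 533 with the block and 856 without sh-luc r1. HSF1, the master regulator, was at 52.5, 54.5 and 59.8 FPKM in sh-luc and at 53.9, 62.6 and 57.3 FPKM in sh-IUR1 (log2 fold change 0.058), and HSF2 between 7.23 and 8.78 FPKM. HSBP1, which binds HSF1, was at 113.7, 86.5 and 91.4 FPKM in sh-luc and at 89.8, 83.4 and 96.4 FPKM in sh-IUR1. HSF4 had a log2 fold change of 0.16 (adjusted p = 0.930 from limma). Of 28 heat-inducible genes, 15 are chaperones of the present set and 13 are not. Over all 28 the median log2 fold change was -0.057, with 19 negative, and -0.0065 without the unnumbered sh-luc library. Of the 13 others, 7 were highest in the unnumbered sh-luc library and 8 lowest in sh-IUR1 r1. The 27 co-chaperones of HSP70 and HSP90 had a median of -0.0090 with 15 negative, which became 0.0011 without sh-luc r2. FKBP4, an HSP90-binding immunophilin that is on both lists, was at 98.02, 82.2 and 93.5 FPKM in sh-luc and at 76.5, 77.2 and 87.4 FPKM in sh-IUR1 (log2 fold change -0.18, unadjusted p = 0.0495 and adjusted p = 0.930 from limma). BAG1, an exchange factor of HSP70, was lower without overlap, at 20.7, 17.5 and 18.7 FPKM in sh-luc and 16.6, 16.4 and 17.3 FPKM in sh-IUR1 (log2 fold change -0.17).

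Partners of TRiC had a median log2 fold change of -0.070, with 10 of 14 negative, and of -0.016, with 8 negative, without the unnumbered sh-luc library. PDCL3, a phosducin-like cofactor of TRiC, was at 28.2, 23.6 and 24.3 FPKM in sh-luc and at 23.1, 20.4 and 22.4 FPKM in sh-IUR1 (log2 fold change -0.20, adjusted p = 0.930 from limma). PFDN6, a subunit of prefoldin, which hands actin and tubulin to TRiC, was at 180.2, 168.4 and 173.1 FPKM in sh-luc and at 163.3, 161.6 and 153.5 FPKM in sh-IUR1 (log2 fold change -0.12, adjusted p = 0.930 from limma). Neither overlapped between groups. They are the 2 of 14 partners that were lower without overlap, beside 3.03% of all genes tested. The 14 genes of mitochondrial proteostasis were divided equally, 7 and 7, with a median of 0.011 that became -0.0079 without the unnumbered sh-luc library. Among them LONP1, a matrix protease, was at 113.9, 136.0 and 143.2 FPKM in sh-luc and at 144.2, 155.1 and 134.0 FPKM in sh-IUR1. GRPEL1, the exchange factor of HSPA9, was at 33.0, 28.5 and 30.2 FPKM in sh-luc and at 27.9, 28.7 and 29.3 FPKM in sh-IUR1. These genes differed in the library that stood highest.

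The 5 chaperones of the endoplasmic reticulum that the rule left out had a median log2 fold change of -0.093, with 4 negative, and of -0.022 without the unnumbered sh-luc library. HSP90B1, the HSP90 of that compartment, was at 204.0, 159.1 and 151.2 FPKM in sh-luc and at 159.5, 135.2 and 171.3 FPKM in sh-IUR1, which is the order of HSP90AA1 at its extremes. HSPA5, its HSP70, was at 85.5, 88.1 and 85.7 FPKM in sh-luc and at 83.4, 77.1 and 82.5 FPKM in sh-IUR1, and DNAJB11 at 35.7, 31.7 and 33.6 FPKM and at 31.4, 29.6 and 29.3 FPKM. The groups did not overlap for HSPA5 and DNAJB11 (log2 fold changes -0.093 and -0.15, adjusted p = 0.930 for each from limma). These 2 of 5 genes were lower, and of all genes tested 3.03% were lower without overlap. A difference between these genes and the cytosolic and mitochondrial chaperones was not tested.

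Genes of the integrated stress response, driven by the factor ATF4, stood opposite to the heat-inducible genes in the unnumbered sh-luc library and in sh-IUR1 r1. For the 20 genes tested, the median deviation from the mean of each gene on the log2 scale was -0.63, 0.19 and 0.038 over the sh-luc libraries and 0.22, 0.35 and -0.085 over those of sh-IUR1. For the 28 heat-inducible genes it was 0.15, -0.041 and 0.016 over the sh-luc libraries and -0.0098, -0.12 and 0.028 over those of sh-IUR1. Of these 28, 15 are chaperones of the present set. For the 13 others it was 0.068, -0.027 and 0.041 over the sh-luc libraries and -0.011, -0.11 and 0.0091 over those of sh-IUR1. The unnumbered sh-luc library was the lowest for all 19 stress genes that averaged at least 1 FPKM, and sh-IUR1 r1 the highest for 14. DDIT3, which encodes the stress factor CHOP, was at 41.9, 97.2 and 88.8 FPKM in sh-luc and at 100.5, 111.1 and 85.6 FPKM in sh-IUR1. SLC7A11, a cystine importer, was at 7.02, 15.4 and 12.3 FPKM in sh-luc and at 16.7, 15.5 and 13.8 FPKM in sh-IUR1. The median log2 fold change of this list was 0.32, and it was 0.053 without the unnumbered sh-luc library. Of its genes 0 passed the test in limma. The part of these library differences in the chaperone fold changes was not tested.

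**Figure D5:**
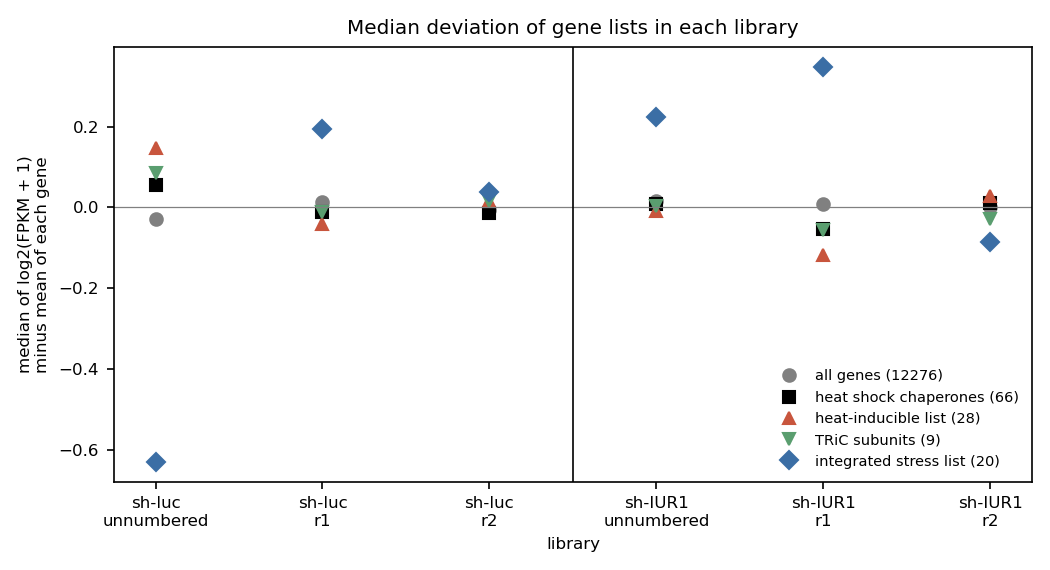
Median over each gene list of log2(FPKM + 1) minus the mean of the gene, in each library, with the number of genes in brackets; the vertical line separates sh-luc from sh-IUR1. In the unnumbered sh-luc library the heat-inducible list is at 0.15 and the integrated stress list at -0.63, and in sh-IUR1 r1 they are at -0.12 and 0.35. Of the heat-inducible genes, 15 are also among the heat shock chaperones.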

How the data were processed

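According to the methods, the authors trimmed and masked the reads, mapped them to hg38 and computed RPKM with SAMtools 0.1.19. The aligner, gene annotation and strandedness are not given in the sources used here. The deposited values are FPKM with 2 decimals. The authors also deposited z-scores of FPKM (a score), a cluster number and a membership fraction, which were not used. Entrez identifiers were matched to RefSeq GRCh38.p14 (12348 of 12486 genes), and lncRNA-IUR1 was not analysed here.

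For the 12276 genes that averaged 0.1 FPKM or more, log2(FPKM + 1) entered limma 3.58.1 (R 4.3.3), with group as the only term and eBayes with a trend, with Benjamini-Hochberg adjustment. The step was tested on simulated data. FPKM are not counts. Ratios of low values were whole numbers (within 0.1) for 20.1% of 3124, where an even spread gives 20%, so whole reads were not recovered and the depth is unknown. Pairs of libraries correlated across genes at Pearson's r between 0.9903 and 0.9984. The p-values measure the spread between these libraries, which may be technical.

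The chaperones and lists were chosen with earlier results of these data known. Named were a fixed set of 21 chaperones, those without overlap between groups at a mean of at least 1 FPKM, the 3 per direction with the smallest p, the 5 with the widest range, and 2 genes per other list. DNAJB2, HSPA6 and other genes outside this rule, and the heat shock element search, were chosen after values were seen. The alternatives changed the pseudocount (0.1), the filter (none, or 1 FPKM), the scaling (median-ratio or quantile) or the trend (none), added a replicate block, or left out each library. Python 3.11.15, pandas 2.3.3 and matplotlib 3.10.9 were used for the rest.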

Additional observations from a re-analysis of the deposited data

How the results depend on the processing

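Under every alternative run, limma called 0 chaperones and 0 genes over all. Of 351 values of the 27 named chaperones under alternatives, 337 kept their direction. The sign turned for HSPA4 with median-ratio scaling (-0.0081) and for HSPB1 (0.0020) and CCT7 (0.00077) with quantile normalization, and for 9 chaperones when a library was left out. When each library was left out in turn, the log2 fold change ran from -0.26 to 0.036 for HSP90AA1, from -0.24 to 0.13 for HSPA1A, from -0.060 to 0.23 for HSPA1B, from -0.020 to 0.044 for HSPA4, from -0.00056 to 0.087 for HSPA9, from -0.17 to 0.0020 for HSPH1, from -0.084 to 0.0039 for HSPB1, from -0.049 to 0.011 for CCT7 and from -0.082 to 0.018 for CCT8. The lowest values of HSPA1A and HSPA1B came without sh-luc r1 and the highest without the unnumbered sh-luc library.

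At an unadjusted p under 0.05, limma gave 325 genes over all, 533 with a replicate block, and between 158 and 856 with a library left out (856 without sh-luc r1). Among the chaperones, 2 were higher, beside 203 of all 12276 genes, and 1 with quantile normalization, beside 134. With a replicate block 3 were higher, beside 355 of all genes. With a library left out 0 to 3 were higher. The 0 came without the unnumbered sh-IUR1 library, beside 98 of all genes. The 3 came without the unnumbered sh-luc library, sh-luc r1 or sh-IUR1 r2, beside 143, 598 and 475 of all genes. Lower were 0, 4 with a replicate block (beside 178 of all 12276 genes) and 0 to 5 with a library left out (5 without sh-luc r1, beside 258 of all genes). The deviations of same-numbered libraries correlated at 0.39 for r1, 0.044 for the unnumbered pair and -0.34 for r2, so the numbers were not taken to pair the libraries. Chaperones without overlap, above, were 4, or 2 with quantile normalization and 4 to 8 with a library left out. Below, they were 3, or 2 with quantile normalization and 4 to 10 with a library left out. With quantile normalization 366 of all genes lay above and 491 below. The 8 came without sh-IUR1 r2, beside 1847 of all genes, and the 10 without sh-luc r1, beside 1037. The median of the heat shock factors was 0.058, 0.0044 at a minimum of 1 FPKM and 0.011 to 0.11 with a library left out, and that of the chaperones of the endoplasmic reticulum -0.11 to -0.022. With a library left out, the median was 0.053 to 0.49 for the integrated stress genes, -0.11 to -0.016 for the partners of TRiC, -0.0079 to 0.041 for mitochondrial proteostasis and -0.026 to 0.0011 for the co-chaperones. The cause of these changes was not tested. Fewer libraries make separation of the groups more frequent. The depth is unknown, so what it limits cannot be given.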
